A study of Sus scrofa with 12 samples.

Results

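Described here are 7 pig genes of the inhibin, activin, follistatin and anti-Müllerian hormone (AMH) system: INHA, INHBA, INHBB, FST, AMH, AMHR2 and BMPR1B. They were taken by name, as all probe sets that the array annotation gives 1 of these symbols. That found 11 probe sets out of 23999 tested, for 7 of the 6765 genes named on the array. A probe set is the group of short probes that reads 1 transcript. Each gene is represented by its probe set with the highest mean over the 12 arrays. FST and INHBB each have a second probe set, and BMPR1B has 3 in all.

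These genes encode ligands, a binding protein and receptors of the TGF-beta superfamily that the ovarian follicle uses to talk to the pituitary and to itself. Inhibin is a dimer of the alpha subunit (INHA) with a beta subunit (INHBA or INHBB), and it lowers the release of follicle-stimulating hormone. Dimers of the beta subunits alone are activins, which act in the opposite way and are captured by follistatin (FST). AMH, made by granulosa cells of growing follicles, restrains follicle recruitment in mice through its own type II receptor, AMHR2. BMPR1B is a type I receptor for bone morphogenetic proteins (BMPs), known from sheep for its effect on ovulation rate.

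The study set cells that had lost their specialised state in culture against the isolated cells they came from. DFOG are follicular granulosa cells dedifferentiated in vitro and grown to semiconfluence, and GC are the granulosa cells of the ovarian follicle. DFAT are mature adipocytes dedifferentiated in ceiling culture and grown to semiconfluence, and MA are the mature adipocytes of fat tissue. Each group had 3 arrays, called biological replicates in the labels, which name no strain, age, animal or pool, so the p-values reflect how much these samples vary, which could partly be technical variation. Dedifferentiation and other effects of culture cannot be told apart in this design. DFOG replicates 2 and 3 were nearly the same: their log2 differences had an SD of 0.07 over all probe sets, where the 11 other pairs of arrays of a group had 0.31 to 0.62. They were counted as 1 sample, their mean, so DFOG has n = 2.

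Markers mostly fit the labelled cells. HSD17B1, LHCGR and NR5A2 averaged 13.72, 11.79 and 12.97 in GC, against 5.43, 6.60 and 4.60 in MA, while the probe sets of the granulosa genes CYP19A1, FOXL2 and STAR were no higher in GC (4.95, 5.56 and 4.78) than in MA (5.03, 5.70 and 4.80). All 9 measured of 12 adipocyte markers were lower in GC than in MA. The mean over the 10 granulosa markers was 7.48 to 7.69 on the DFOG arrays and 9.64 to 9.82 on the GC arrays. The mean over 7 of 9 fibroblast and stromal markers was 8.95 to 9.07 in DFOG against 5.14 to 5.55 in GC, and 10.32 to 10.79 in DFAT against 7.11 to 8.14 in MA. For 3 of 4 smooth muscle markers the mean was 10.80 to 11.57 in DFOG against 5.88 to 6.33 in GC, and 11.88 to 12.74 in DFAT against 5.70 to 6.07 in MA. The mean over 7 of 10 macrophage markers ran from 4.26 to 4.41 in DFAT and from 5.78 to 6.86 in MA, and that over 7 endothelial markers from 4.92 to 5.18 in DFAT and from 5.57 to 6.13 in MA. The mean over 5 of 6 theca markers ran from 7.41 to 7.51 in DFOG and from 8.45 to 9.13 in GC. Of these 5, CYP11A1 was called higher in DFOG than in GC, and INSL3 and LHCGR were called lower. CYP17A1 averaged 5.20 in DFOG and 4.81 in GC, while the theca cell hormone INSL3 averaged 5.83 in DFOG and 8.84 in GC. INSL3 averaged 5.81 in DFAT and 6.18 in MA. The mean over 5 of 8 oocyte markers ran from 4.97 to 5.09 in DFOG and from 5.40 to 5.47 in GC. GDF9 was the only 1 of these 5 called lower in DFOG than in GC (5.73 against 7.53), and none was called higher. It was also called lower in DFAT than in MA (5.88 against 6.89). The part of other cells in the results that follow was not tested.

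Culture of granulosa cells went with lower RNA levels of 5 of the 7 genes. INHA, INHBB, FST, AMH and AMHR2 fell in DFOG against GC, INHBA and BMPR1B did not pass the test, and none rose. Of all 23999 probe sets, 12.6% were lower and 12.3% were higher in DFOG. The median log2 difference was -2.67 over the 7 genes and -0.02 over all probe sets. In adipocytes the picture differed: only BMPR1B passed the test in DFAT against MA, and it rose, where 15.7% of all probe sets rose and 16.4% fell. The median there was 0.02 over the 7 genes and -0.07 over all probe sets. A gene counts as changed at an adjusted p under 0.05 in limma's moderated test, with the adjustment over all 23999 probe sets.

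**Figure D1:**
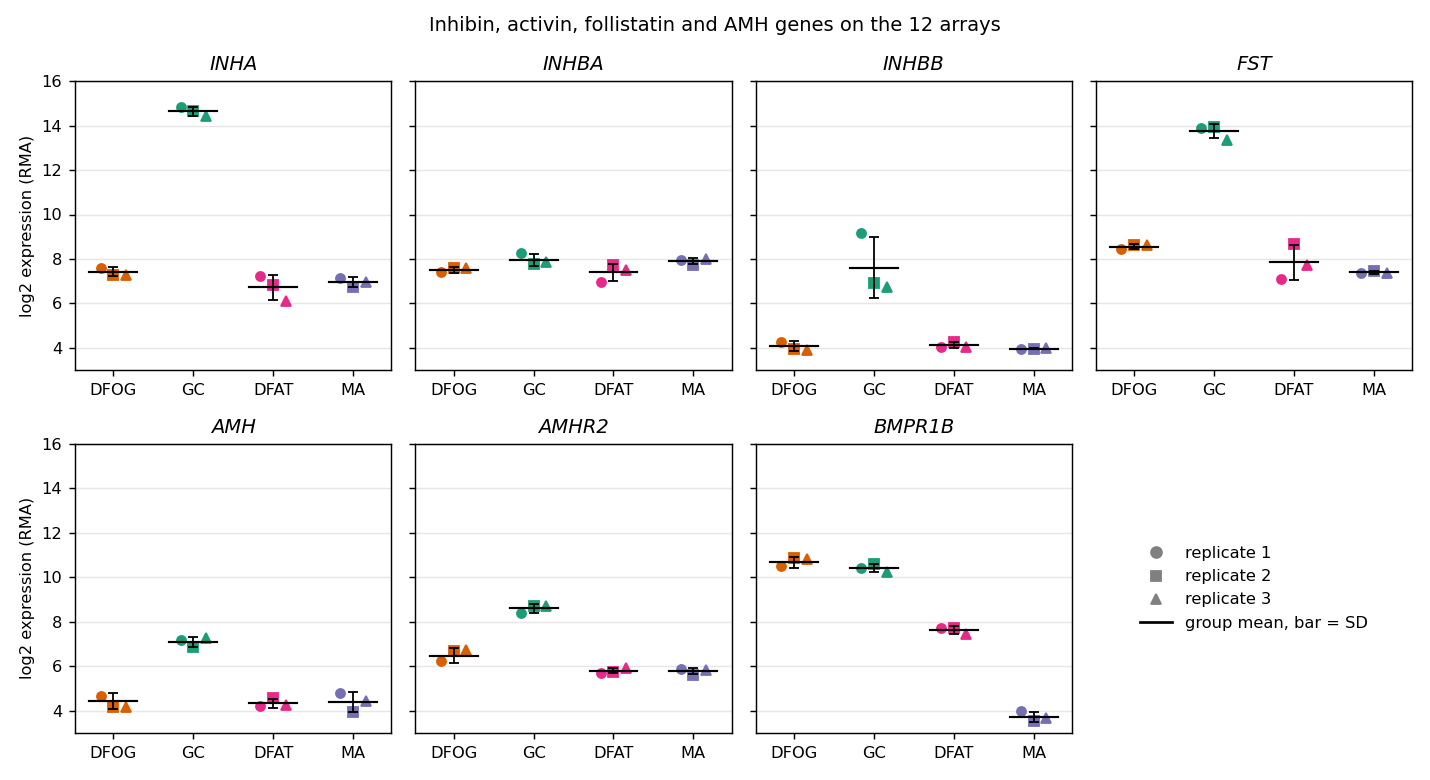
Log2 expression value (RMA, vertical axis) of the 7 genes on each of the 12 arrays, by group. Symbols are replicates, lines are group means and bars are SD, with DFOG replicates 2 and 3 counted as 1 sample. INHA, INHBB, FST, AMH and AMHR2 are highest in GC, while the BMPR1B values of DFOG (10.49 to 10.86) and GC (10.25 to 10.58) overlap.

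Among the ligand subunits, INHA showed the widest gap between the groups. INHA read 7.59, 7.29 and 7.27 on the DFOG arrays, against 14.85, 14.64 and 14.43 on the GC arrays. Every GC array lay more than 6 units above every DFOG array, and DFOG lay just above the fat cells. The log2 difference was -7.20 ± 0.29 (SE, limma adjusted p = 3.30e-08), which is 148-fold lower in DFOG. INHA read 7.24, 6.83 and 6.13 in DFAT and 7.16, 6.75 and 6.98 in MA, so those groups overlapped (difference -0.23 ± 0.26, SE, limma adjusted p = 0.564). In bulk RNA, fewer cells of a type and less RNA per cell cannot be told apart.

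INHBB, the beta subunit of inhibin B and activin B, also fell in DFOG. Its values were 4.25, 3.95 and 3.91 in DFOG, against 9.19, 6.90 and 6.73 in GC. The groups did not overlap, but GC replicate 1 stood more than 2 units above the other two. The log2 difference was -3.52 ± 0.56 (SE, limma adjusted p = 0.000793), and -2.73 without GC replicate 1, which moves the fold by over 1.5 times. In DFAT the gene read 4.04, 4.28 and 4.05, and in MA 3.95, 3.96 and 3.99. All DFOG, DFAT and MA values lay below the level under which 25% of probe sets fall on an array (4.38 to 4.61). For the group comparison with the mean over both probe sets the difference was -1.86 (limma adjusted p = 0.00338).

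INHBA, the beta subunit of inhibin A and activin A, did not pass in either cell type. It read 7.42, 7.60 and 7.58 in DFOG, against 8.26, 7.76 and 7.88 in GC. It read 6.97, 7.73 and 7.50 in DFAT, against 7.95, 7.74 and 8.01 in MA. In both comparisons all cultured samples lay below all isolated ones, though only narrowly in DFAT. The differences were -0.46 (95% confidence interval -0.99 to 0.06, limma adjusted p = 0.198) in DFOG and -0.50 (-0.97 to -0.03, limma adjusted p = 0.0985) in DFAT. In DFAT it passed without DFAT replicate 2 (-0.66, limma adjusted p = 0.0468), and with arrays quantile normalized again (-0.56). With arrays centred on their poly-A controls the difference was -1.25 in DFOG, which passed, and 0.13 in DFAT.

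AMH, the remaining ligand, read 4.68, 4.18 and 4.17 in DFOG, against 7.19, 6.85 and 7.25 in GC. All GC arrays were higher than all DFOG arrays. AMH fell by 2.67 ± 0.26 on the log2 scale (SE, limma adjusted p = 2.43e-05), a reading 6.36-fold lower in DFOG. The DFOG values lie about at the level under which 25% of probe sets fall (4.38 to 4.61), so the size of the fall is uncertain. The DFAT values of 4.19, 4.55 and 4.24 fell within the MA values of 4.80, 3.93 and 4.45, and both groups lay near the level of DFOG.

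FST, whose protein binds activin almost irreversibly, read 8.47, 8.63 and 8.62 in DFOG, against 13.90, 13.93 and 13.37 in GC. The groups stood far apart relative to the spread within them. The log2 difference was -5.19 ± 0.36 (SE, limma adjusted p = 1.84e-06), or 36.4-fold lower in DFOG. Its second probe set read 5.24, 5.56 and 5.26 in DFOG, against 9.14, 9.51 and 9.74 in GC, and it fell as well (-4.14 ± 0.22, SE, limma adjusted p = 2.57e-07). In fat cells FST read 7.11, 8.69 and 7.72 in DFAT, against 7.37, 7.47 and 7.36 in MA. The MA arrays lay close together, while the DFAT arrays ran from below to above them. The difference of 0.44 did not pass (limma adjusted p = 0.355). With 1 replicate left out it ran from 0.02 to 0.80, the latter without DFAT replicate 1, which passed (limma adjusted p = 0.0492). With the gap between the 3′ and 5′ actin control probe sets as a covariate it was 0.17 (limma adjusted p = 0.872). With poly-A centring, which moves the median of all probe sets to 0.56 here, it was 1.07 (limma adjusted p = 0.0457).

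The receptors behaved unequally. AMHR2, the receptor that gives AMH its specificity, read 6.23, 6.67 and 6.74 in DFOG, against 8.38, 8.69 and 8.73 in GC. It fell by 2.13 ± 0.19 on the log2 scale (SE, limma adjusted p = 1.37e-05), 4.37-fold lower. The DFOG arrays nonetheless lay above all 6 fat cell arrays, which read 5.71, 5.76 and 5.93 in DFAT and 5.89, 5.62 and 5.85 in MA.

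BMPR1B read 10.49, 10.86 and 10.84 in DFOG, against 10.42, 10.58 and 10.25 in GC. The groups overlapped, and the difference of 0.25 (95% confidence interval -0.19 to 0.69) did not pass (limma adjusted p = 0.452). With the mean over the gene's 3 probe sets it was 0.57 and passed (limma adjusted p = 0.0495). In fat cells BMPR1B read 7.73, 7.73 and 7.43 in DFAT, against 3.98, 3.53 and 3.65 in MA. All DFAT values were more than 3 units above all MA values, and the gene rose by 3.91 ± 0.18 on the log2 scale (SE, limma adjusted p = 5.77e-08). The mean over the probe sets gave a smaller rise of 2.10. The MA values lie below the level under which 25% of probe sets fall (4.38 to 4.61), and without detection calls it is not known whether BMPR1B was above background there, so the sizes of its differences from MA are uncertain.

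**Figure D2:**
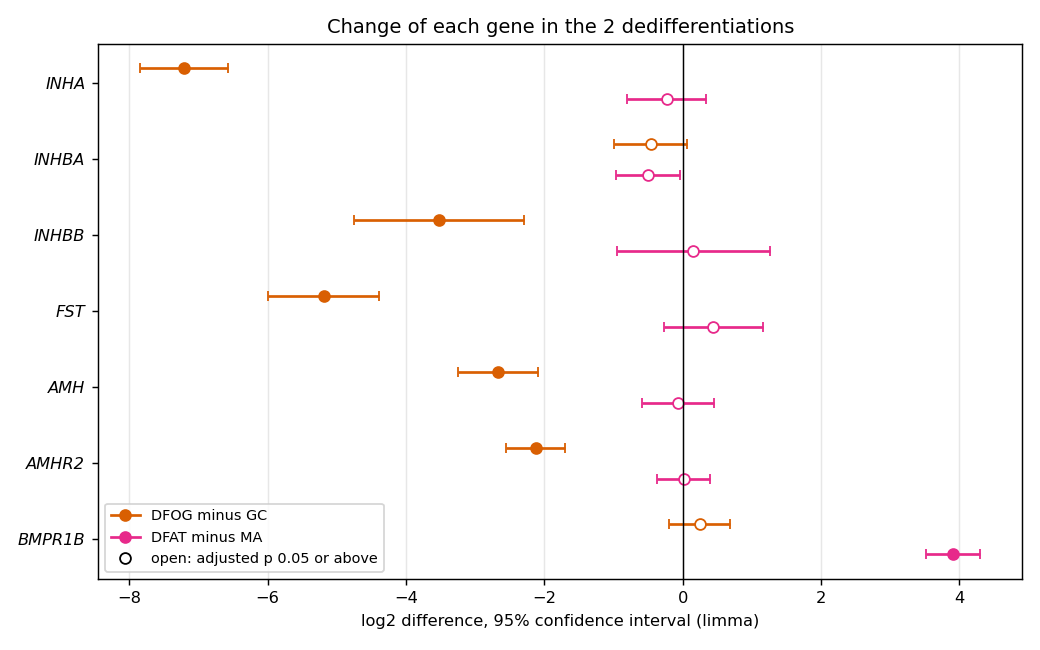
Log2 difference of each of the 7 genes in DFOG minus GC and in DFAT minus MA, with 95% confidence intervals from limma. Filled points passed at an adjusted p under 0.05. INHA has the largest fall (-7.20) in DFOG, and BMPR1B is the filled point in DFAT (3.91).

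The probe sets of a gene did not always tell the same story. The second BMPR1B probe set read 9.66, 9.88 and 9.86 in DFOG, against 9.17, 9.80 and 9.23 in GC. It read 6.10, 6.30 and 6.54 in DFAT, against 4.10, 4.20 and 4.33 in MA, a rise of 2.10 ± 0.19 (SE, limma adjusted p = 9.25e-06). This probe set thus gave the same calls as the first. The third read 4.91, 4.79 and 4.53 in DFAT, against 5.05, 4.46 and 3.83 in MA, so those groups overlapped and the difference did not pass (0.29 ± 0.41, SE, limma adjusted p = 0.643). It read 7.67, 6.90 and 6.88 in DFOG, against 7.14, 5.78 and 5.67 in GC. The second INHBB probe set was low on all arrays, at most 4.11 in DFOG and 4.62 in GC, and at most 4.28 in DFAT and 5.02 in MA. It did not pass in DFOG (-0.19 ± 0.28, SE, limma adjusted p = 0.719), so the fall of INHBB rests on 1 of 2 probe sets.

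**Figure D3:**
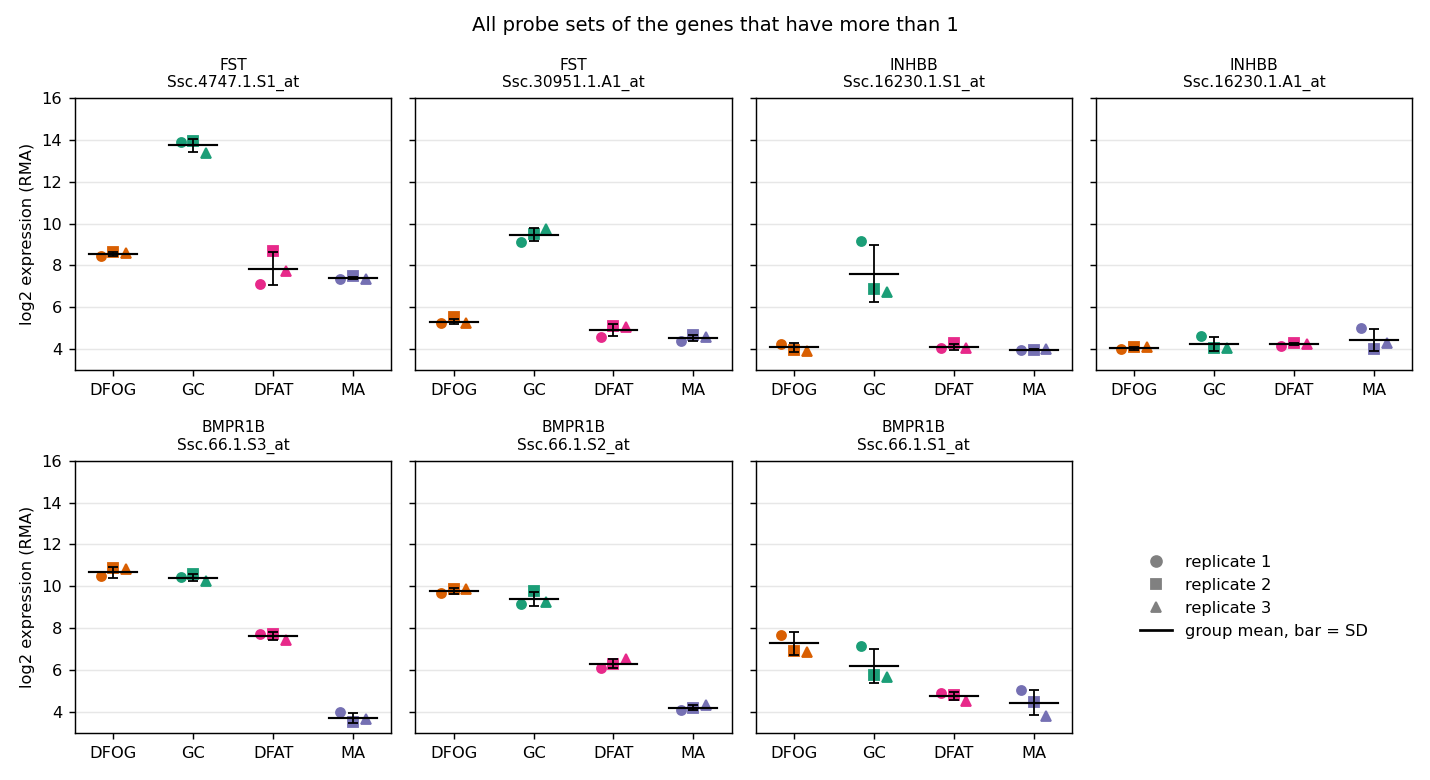
Log2 expression value (RMA, vertical axis) of every probe set of FST, INHBB and BMPR1B on each array, by group, with the first probe set of each gene the one that represents it. Symbols are replicates, lines are means and bars are SD. Both FST probe sets are high in GC, 1 of 2 INHBB probe sets is, and the DFAT rise of BMPR1B appears in 2 of 3 probe sets.

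The 2 dedifferentiations were compared by the interaction, the change in DFOG against GC minus the change in DFAT against MA. It was below 0 and passed for 6 of the 7 genes, where 11.6% of all probe sets were lower and 11.7% higher by this measure. For 5 of these genes the interaction went with a fall in granulosa cells and no called change in fat cells. For BMPR1B it went with the rise in fat cells, with an interaction of -3.66 ± 0.27 (SE, limma adjusted p = 4.37e-06). INHBA had an interaction of 0.04 (95% confidence interval -0.66 to 0.74, limma adjusted p = 0.957).

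The isolated cells differed in the same 6 genes, all higher in GC than in MA, where 19.7% of probe sets were higher and 20.7% lower. The comparisons share the GC and MA samples, so this is not independent of the changes above. INHA was higher in GC by 7.68 ± 0.26, BMPR1B by 6.70 ± 0.18 and FST by 6.33 ± 0.32 (SE, limma adjusted p = 3.72e-09, 1.01e-09 and 6.91e-08). AMHR2 was higher by 2.81 ± 0.17 and AMH by 2.70 ± 0.24. INHBB was higher by 3.64 ± 0.50, by 2.85 without GC replicate 1 and by 1.72 with the mean over its probe sets, while its second probe set was at -0.20 and did not pass. INHBA differed by 0.07 (95% confidence interval -0.40 to 0.53).

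After culture, 1 of the 7 genes still separated the cells of ovarian origin from those of fat origin, where 4.31% of probe sets were higher and 3.70% lower in DFOG than in DFAT. BMPR1B was higher in DFOG than in DFAT by 3.04 ± 0.20 (SE, limma adjusted p = 3.92e-06), an 8.20-fold difference. AMHR2 was 0.67 higher in DFOG (95% confidence interval 0.24 to 1.10) and missed the threshold (limma adjusted p = 0.0625), although its groups did not overlap. It passed with DFOG replicates 2 and 3 taken as separate samples (0.75, limma adjusted p = 0.0112). Those arrays were nearly the same, so that fit counts 1 sample as 2 and its p-value is too small. AMHR2 also passed with the actin covariate (0.74, limma adjusted p = 0.0232). With poly-A centring it was 0.59 and did not pass (limma adjusted p = 0.726). INHA was 0.70 higher (0.06 to 1.34, limma adjusted p = 0.221) and FST 0.70 higher (-0.10 to 1.50, limma adjusted p = 0.375). With 1 replicate left out FST ran from 0.34 to 1.13, the latter without DFAT replicate 2, which passed (limma adjusted p = 0.0250). INHBB, AMH and INHBA differed by -0.04, 0.10 and 0.10, within the spread of the groups.

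By level, INHA ran in the order GC, DFOG, MA and DFAT (14.64 ± 0.21, 7.44 ± 0.22, 6.96 ± 0.21 and 6.73 ± 0.56, SD), and MA and DFAT overlapped. FST ran GC, DFOG, DFAT and MA (13.73 ± 0.32, 8.55 ± 0.11, 7.84 ± 0.80 and 7.40 ± 0.06, SD), and of neighbours DFOG overlapped DFAT and DFAT overlapped MA. AMH ran GC, DFOG, MA and DFAT (7.10 ± 0.21, 4.43 ± 0.35, 4.39 ± 0.44 and 4.33 ± 0.19, SD), and all groups but GC overlapped. INHBB ran GC, DFAT, DFOG and MA (7.61 ± 1.37, 4.12 ± 0.13, 4.09 ± 0.23 and 3.97 ± 0.02, SD), where DFAT overlapped DFOG and DFOG overlapped MA. AMHR2 ran GC, DFOG, DFAT and MA (8.60 ± 0.19, 6.47 ± 0.34, 5.80 ± 0.12 and 5.78 ± 0.15, SD), where DFAT and MA overlapped. BMPR1B ran DFOG, GC, DFAT and MA (10.67 ± 0.26, 10.42 ± 0.17, 7.63 ± 0.17 and 3.72 ± 0.23, SD), where DFOG and GC overlapped. INHBA ran GC, MA, DFOG and DFAT (7.97 ± 0.26, 7.90 ± 0.14, 7.50 ± 0.12 and 7.40 ± 0.39, SD), where GC overlapped MA and DFOG overlapped DFAT.

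The genes whose values followed each member most closely were found by Pearson's r over the 11 samples, among about 3120 genes whose group means spanned at least 1 log2 unit. The samples fall into 4 groups, so a high r mainly reports a shared order of groups and is given as a description. INHA was closest to ACSL6, a fatty acid activating enzyme (r = 0.998), DAPL1 (0.994) and the glutathione transferase GSTA1 (0.994). AMH was closest to MOBP (0.984), INHA (0.981) and the phospholipase PLA2G1B (0.981). INHBB was closest to the granule protein CHGA (0.976), the neuropeptide Y receptor NPY2R (0.972) and INSL3, a theca cell hormone (0.966). FST was closest to the magnesium transporter SLC41A1 (0.987), the metalloprotease BMP1 (0.985) and the kinase JAK3 (0.983). AMHR2 was closest to the transcription factor BCL11A (0.984), GARNL3 (0.984) and the mitochondrial electron carrier FDXR (0.983). BMPR1B was closest to the ectonucleotidase ENTPD1 (0.989), the glycosyltransferase GALNT7 (0.988) and the microtubule regulator STMN1 (0.983). INHBA, which varied least, reached 0.884 with the vesicle protein VAMP2, 0.881 with ZNF395 and 0.864 with the MYC antagonist MXI1.

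The rest of the pathway was read through a list of 90 further ligands, receptors, antagonists, SMADs, targets, proteases and regulators, of which 46 were measured under a symbol. In DFOG against GC 14 of the 46 rose and 10 fell, with a median of 0.32. In DFAT against MA 14 rose and 5 fell, with a median of 0.31. The shares of all probe sets are those given above, 12.3% and 12.6% for DFOG and 15.7% and 16.4% for DFAT.

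**Figure D4:**
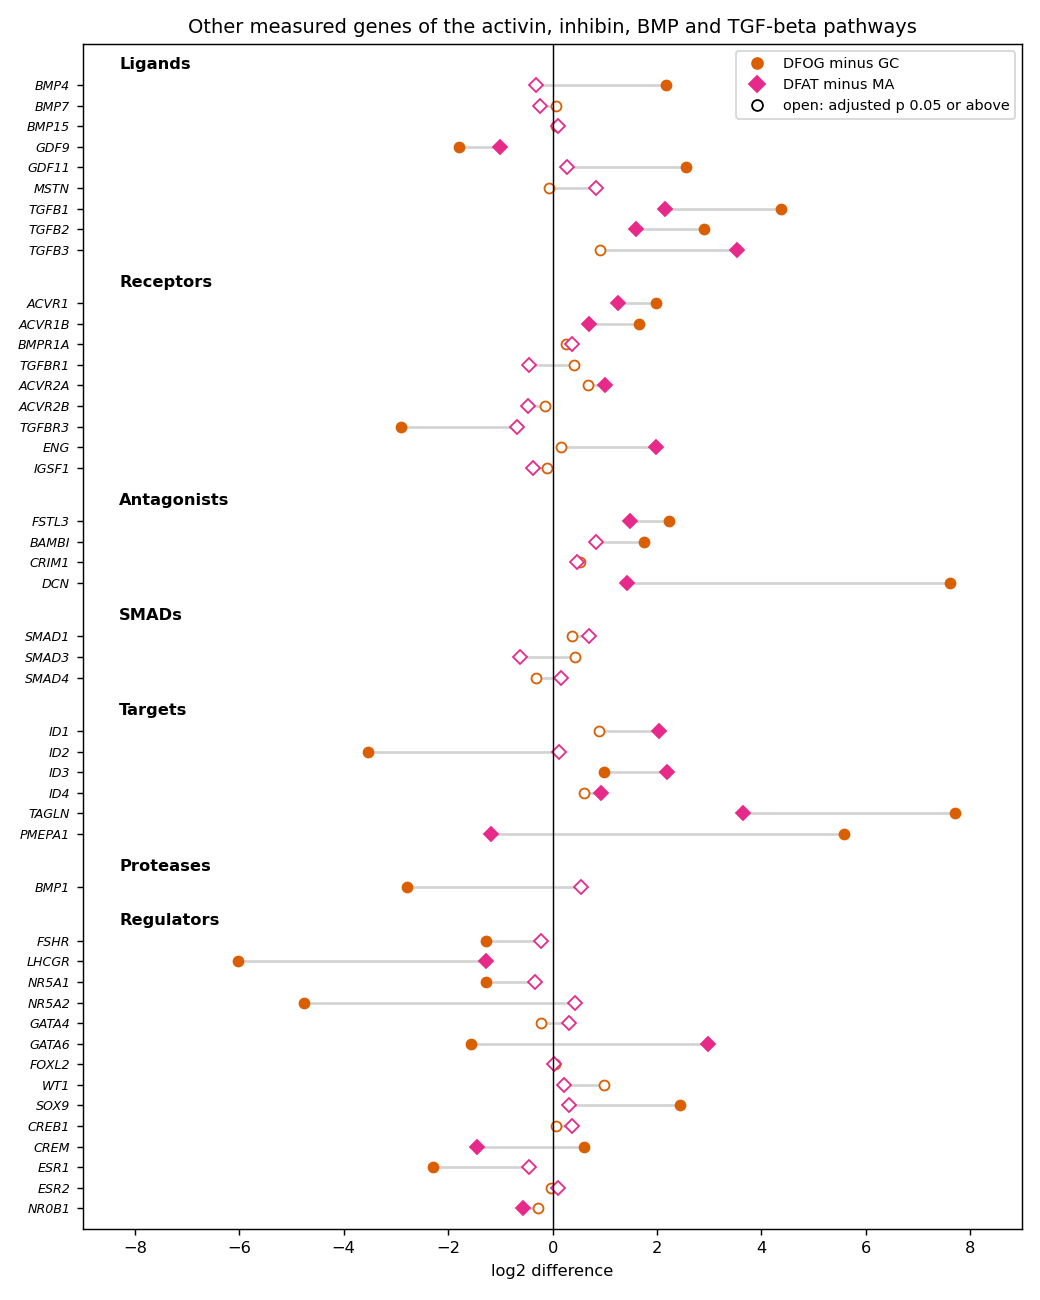
Log2 difference of 46 further pathway genes, grouped by role, in DFOG minus GC (circles) and DFAT minus MA (diamonds), with a grey line joining the 2 values of a gene. Filled symbols passed at an adjusted p under 0.05. The inhibin co-receptor TGFBR3 lies at -2.91 in DFOG, the activin receptor ACVR1B at 1.65, and PMEPA1 on opposite sides of 0.

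Among 9 measured ligands, 4 rose and 1 fell in DFOG, and 3 rose and 1 fell in DFAT. TGFB1 read 10.45, 9.09 and 9.31 in DFOG, against 6.22, 4.78 and 5.36 in GC, a rise of 4.37 ± 0.46 (SE, limma adjusted p = 4.16e-05). TGFB2 rose by 2.90 in DFOG and by 1.59 in DFAT. TGFB3 rose by 3.53 ± 0.29 in DFAT (SE, limma adjusted p = 4.28e-06) and was 0.90 higher in DFOG without passing (limma adjusted p = 0.0696). In DFOG it passed in some alternatives, such as the replicate block and the compared groups alone (limma adjusted p = 0.0298 and 0.0336). Over all alternatives its DFOG difference ran from 0.11 to 1.15. GDF11, which signals through activin receptors, rose by 2.56 in DFOG. The GC means of TGFB2 and GDF11 were 4.30 and 4.41. They lie about at the level under which 25% of probe sets fall on an array (4.38 to 4.61). The sizes of these rises in DFOG are thus uncertain, and over the alternatives they were 1.72 and 1.43 at the lowest.

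Among 9 measured receptors, TGFBR3 is betaglycan, the co-receptor that lets inhibin block activin receptors. It read 3.91, 3.53 and 3.53 in DFOG, against 8.15, 5.39 and 6.35 in GC, and fell by 2.91 ± 0.62 (SE, limma adjusted p = 0.00509). The DFOG values lie below the level under which 25% of probe sets fall on an array (4.38 to 4.61), so the size of the fall is uncertain. GC replicate 1 was again the highest, and without it the difference was -2.15. The activin type I receptor ACVR1B rose by 1.65 ± 0.22 in DFOG (SE, limma adjusted p = 0.000208) and by 0.69 ± 0.19 in DFAT (limma adjusted p = 0.0177). ACVR1, a type I receptor used by AMH and BMPs, rose by 1.98 in DFOG and by 1.25 in DFAT. The endothelial and stromal co-receptor ENG rose by 1.99 in DFAT and was 0.17 in DFOG. BMPR1A, a close relative of BMPR1B, passed in neither, at 0.26 in DFOG and 0.38 in DFAT, and neither did the type II receptor ACVR2B, at -0.15 and -0.46.

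Of 4 measured antagonists, 3 rose in DFOG and 2 in DFAT. FSTL3, a follistatin relative that also binds activin, went the opposite way to FST in DFOG against GC. It read 10.87, 10.33 and 10.30 in DFOG, against 8.33, 8.36 and 8.37 in GC, a rise of 2.24 ± 0.31 (SE, limma adjusted p = 0.000320). It read 8.53, 9.77 and 9.46 in DFAT, against 7.59, 7.80 and 7.91 in MA, a rise of 1.48 ± 0.28 (limma adjusted p = 0.00173). BAMBI, a decoy receptor, rose by 1.75 in DFOG. Decorin (DCN), a matrix proteoglycan that binds TGF-beta and a marker on the stromal list, rose by 7.61 in DFOG and by 1.42 in DFAT. The size of the DFOG rise is uncertain. It was 3.83 at the lowest over the alternatives. The GC mean of 4.18 lies below the level under which 25% of probe sets fall on an array (4.38 to 4.61). In DFAT the mean over the probe sets of DCN gave 0.60, which did not pass (limma adjusted p = 0.126). None of the 3 measured SMADs, the proteins that carry these signals to the nucleus, passed in either comparison.

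Of 6 measured targets, 3 rose and 1 fell in DFOG, and 4 rose and 1 fell in DFAT. ID2, an inhibitor of differentiation factors, read 4.57, 5.60 and 5.48 in DFOG, against 7.48, 9.04 and 9.26 in GC, and fell by 3.53 ± 0.47 (SE, limma adjusted p = 0.000216). ID3 rose by 0.98 in DFOG and by 2.19 in DFAT. PMEPA1, a TGF-beta-induced feedback inhibitor, rose by 5.57 in DFOG and fell by 1.18 in DFAT, with an interaction of 6.75 ± 0.51 (SE, limma adjusted p = 5.50e-06). TAGLN, a smooth muscle actin-binding protein, rose by 7.71 in DFOG and by 3.64 in DFAT, together with the smooth muscle markers given above. The one measured protease, BMP1, read 9.46, 9.89 and 9.93 in DFOG, against 12.66, 12.52 and 12.26 in GC, and fell by 2.80 ± 0.22 (SE, limma adjusted p = 4.11e-06). Over the alternatives that difference ran from -3.59 to -1.61. In DFAT against MA it was 0.54 and did not pass (limma adjusted p = 0.0564). The mean over the probe sets of BMP1 gave 1.14 there, which passed (limma adjusted p = 0.000164).

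Of 14 measured regulators of these genes in granulosa cells, 6 fell and 2 rose in DFOG. The luteinising hormone receptor LHCGR fell by 6.02 ± 0.29 in DFOG and by 1.28 ± 0.26 in DFAT (SE, limma adjusted p = 1.26e-07 and 0.00289). NR5A2, a nuclear receptor of steroid-producing cells, read 8.39, 8.06 and 8.04 in DFOG, against 13.21, 13.31 and 12.39 in GC. It fell by 4.75 ± 0.31 (SE, limma adjusted p = 1.19e-06) and remained higher in DFOG than in DFAT by 3.18. SOX9, a factor that activates AMH in Sertoli cells of mice, rose by 2.44 in DFOG while AMH fell. SOX9 averaged 6.12 in DFOG and 3.68 in GC. The GC mean lies below the level under which 25% of probe sets fall on an array (4.38 to 4.61), so the size of the rise is uncertain. GATA4 averaged 8.78 in DFOG and 8.99 in GC, which did not pass (limma adjusted p = 0.820), and was 4.21 higher in DFOG than in DFAT. GATA6 fell by 1.56 ± 0.52 in DFOG (SE, limma adjusted p = 0.0497), a call that was lost in 10 of its alternatives, and rose by 2.98 ± 0.47 in DFAT. It read 6.09, 8.07 and 8.12 in DFAT. GATA4 averaged 4.56 in DFAT and GATA6 averaged 4.45 in MA, about at that same level of 4.38 to 4.61. The sizes of these differences from DFAT and MA are thus uncertain.

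RNA quality readings moved with culture. The gap between the 3′ and 5′ actin control probe sets, larger where RNA is shorter, was 0.39 ± 0.33 in DFOG (SD, n = 2) and 1.35 ± 0.55 in GC (SD, n = 3), and 0.61 ± 0.33 in DFAT and 1.88 ± 0.52 in MA (SD, n = 3 each). With this gap as a covariate the same 5 genes fell in DFOG, BMPR1B rose in DFAT by 4.10, and AMHR2 was higher in DFOG than in DFAT by 0.74 (limma adjusted p = 0.0232). Several pathway calls were lost under other settings. With poly-A centring these were ACVR1B, BAMBI and ID3 in DFOG (limma adjusted p = 0.0608, 0.0648 and 0.689) and PMEPA1 and LHCGR in DFAT (limma adjusted p = 0.258 and 0.134). With the actin covariate they were ID3 and GATA6 in DFOG (limma adjusted p = 0.253 and 0.128). In DFAT they were TGFB1, FSTL3, LHCGR, ACVR1B and DCN with that covariate (limma adjusted p = 0.187, 0.0831, 0.0764, 0.0847 and 0.217). ID3 in DFOG and DCN, PMEPA1 and ACVR1B in DFAT were also lost without single replicates. DCN in DFAT was lost with averaged probe sets and with the compared groups alone as well (limma adjusted p = 0.126 and 0.0616).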

How the data were processed

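RNA of 12 samples of pig cells was hybridised to 1-colour Affymetrix porcine arrays, 1 array each. The authors' deposited table holds log2 values made with RMA, which corrects background, normalizes between arrays and sums probes into probe sets, per the submitters' processing notes. Its version is not given in the sources used here. Of 24123 probe sets, 124 array controls were left out. Of the 23999 tested, 10069 have 1 gene symbol in the platform annotation, 198 have several and 13732 have none. Array medians were 6.36 to 6.49; the number of arrays limits the precision.

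Groups came from the sample titles. limma 3.58.1 in R 4.3.3 was fitted on all probe sets and 11 samples, with 7 residual degrees of freedom, an unblocked group model and Benjamini-Hochberg adjustment at 0.05. The fit was tested on simulated data. Named were the 7 members, up to 4 pathway genes a role by size of change among those that passed, non-passing genes where their role was needed, and 3 genes of most similar pattern per member. The members and lists were chosen with earlier results of these data known. Alternatives covered separate arrays, left-out replicates, replicate block, repeated quantile normalization, poly-A centring, an actin covariate, a low-level filter, averaged probe sets, fits of the compared groups alone and a variance trend. Same-numbered DFOG and GC arrays deviated together (r = 0.604, 0.514 and 0.355), but with DFOG replicates 2 and 3 as 1 sample that is 2 pairs. Unlike numbers also did: DFOG replicate 3 with GC replicate 2 reached 0.508, and DFOG replicate 2 with GC replicate 3 reached 0.338. Pairs with replicate 1 on 1 side only ran from -0.591 to -0.356. Same-numbered DFAT and MA arrays reached 0.0999, 0.168 and 0.126. The numbers were not taken as pairs.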

Additional observations from a re-analysis of the deposited data

Results flagged for a closer look

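For 6 genes the change in granulosa cells (DFOG minus GC) differed from the change in adipocytes (DFAT minus MA) in limma's interaction test, the second change taken from the first. INHA had an interaction of -6.98 (limma adjusted p = 7.54e-07), from -7.20 in granulosa cells and -0.23 in adipocytes. FST had -5.63 (limma adjusted p = 1.35e-05), and its second probe set had -4.52. INHBB had -3.67 (limma adjusted p = 0.00445), -2.88 without GC replicate 1 and -1.83 with the mean over its probe sets. Its second probe set had 0.01 (limma adjusted p = 0.991). BMPR1B had -3.66 (limma adjusted p = 4.37e-06), from 0.25 in granulosa cells and 3.91 in adipocytes, and -1.54 with the mean over its probe sets. The second BMPR1B probe set had -1.74 and the third had 0.79 (limma adjusted p = 0.00134 and 0.423). AMH had -2.60 (limma adjusted p = 0.000324) and AMHR2 had -2.14 (limma adjusted p = 0.000150). Groups of 3 arrays are too small for a search for outlying samples.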

How the results depend on the processing

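Of 718 alternative values of the 7 genes over 5 comparisons, 707 kept direction and side of the threshold, 10 newly passed it, none lost it and 1 reversed. Part of these could not change in direction. Leaving out an array of a group outside a comparison keeps the difference as it was and moves only the p-value. The same holds for averaged probe sets of INHA, INHBA, AMH and AMHR2, which have a single probe set each. The reversal was the INHBA interaction, -1.38 with poly-A centring against 0.04. That centring moves the median of all probe sets to -0.81 in DFOG minus GC, 0.56 in DFAT minus MA, -1.37 in the interaction and 1.27 in GC minus MA while INHBA was at -1.25, 0.13, -1.38 and 1.41 in those comparisons. It splits probe sets called higher and lower into 1062 and 9355 (DFOG minus GC), 6884 and 1340 (DFAT minus MA), 721 and 16040 (interaction) and 19065 and 1146 (GC minus MA). Members called in DFAT minus MA numbered 2 with poly-A centring, 2 with repeated quantile normalization, and 1 to 2 with a replicate left out. In DFOG minus DFAT they numbered 2 with 12 separate arrays, 2 with the actin covariate, and 1 to 2 with a replicate left out. In DFOG minus GC they numbered 3 under the low-level filter, which removes INHBB and AMH, and 5 without any single replicate. With the replicate block they stayed 5, 1, 6, 6 and 1 over the comparisons, with INHBB at -3.63 in DFOG minus GC, while GATA6 no longer passed there (limma adjusted p = 0.0579). Without DFOG replicate 1, which leaves 1 DFOG sample assumed to vary like the others, 3586 probe sets were called in DFOG minus GC and 1103 in DFOG minus DFAT. The DFOG minus DFAT count was 1276 under the filter and 1025 with the compared groups alone. Pathway genes called in DFOG minus DFAT numbered 9 without DFOG replicate 1, 10 under the filter and 10 with the compared groups alone, against 16. With poly-A centring 42 were called in GC minus MA and 32 in the interaction, against 22 and 20. The interaction uses all groups, so it has no fit of the compared groups alone. Among the 7 genes, low values limit INHBB and AMH outside GC, and BMPR1B in MA. They also limit pathway genes such as TGFBR3 in DFOG, SOX9, DCN, TGFB2 and GDF11 in GC, GATA4 in DFAT and GATA6 in MA.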

Other observations

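GC replicate 1 stood apart from the other GC arrays in several genes picked after their values were seen. INHBB read 9.19 there, against 6.90 and 6.73 in GC replicates 2 and 3. The inhibin co-receptor TGFBR3 read 8.15, against 5.39 and 6.35. ID2 was lower there, at 7.48 against 9.04 and 9.26. INHA, at 14.85 against 14.64 and 14.43, and FST, at 13.90 against 13.93 and 13.37, were similar on the 3 arrays. GC replicate 1 also differed over all probe sets. Its log2 differences from GC replicates 2 and 3 had an SD of 0.54 and 0.51, where GC replicates 2 and 3 had 0.31. Its gap between the 3′ and 5′ actin controls was 0.72, against 1.76 and 1.56. Its mean over the poly-A controls was 7.29, against 6.74 and 6.81. Standing apart over all probe sets was not particular to GC, as replicate 1 was the most distant array in every group. Its differences had an SD of 0.57 and 0.62 in DFAT, where replicates 2 and 3 had 0.48. In MA these were 0.45 and 0.50 against 0.33, and in DFOG 0.47 and 0.47 against 0.07. Whether these readings bear on the genes above was not tested.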
